A study of Mus musculus with 6 samples.

Results

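The regions described here are stretches of open chromatin, away from promoters, that were present in mouse neural stem/progenitor cells (NSPCs) with and without the SRR2–18 cluster of *Sox2* enhancers but stood lower in the order of peak strength in the line that lacked the cluster. They were chosen from the peak lists themselves. A parent peak interval had to overlap a ΔSRR2–18 interval by at least 1 bp, and its strongest summit had to lie more than 1 kb from every transcription start site (TSS) of the GENCODE M21 basic annotation of mm10. Each interval took the highest fold enrichment among its summits, which is the pile of reads at the summit divided by the local background, and this was turned into a percentile within its own list (0 to 100, high is strong). A region was a member where the percentile in ΔSRR2–18 was lower than in the parent by 20 points or more. Of 82885 parent intervals, 39500 overlapped a ΔSRR2–18 interval, 25432 of those were distal, and 6025 of these were members (23.7% of shared distal intervals). The rest were 13594 regions whose rank moved by less than 20 points (called stable) and 5813 that ranked higher by 20 points or more.

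ATAC-seq, in which a transposase cuts accessible DNA, was carried out on 3 cultures of the parent line and 3 of the deletion line. Both lines are NSPCs derived from embryonic stem cells of the strain 129S1/Cast F1 Hybrid, kept in N2B27 medium with EGF and bFGF on poly-d-lysine and laminin, and both carry Sox2-mCherry on the 129 allele. The parent is Clone 5B with no deletion, and ΔSRR2–18 is Clone 47D with the homozygous SRR2-18 deletion, made with Cas9 at the embryonic stem cell stage, so each genotype is 1 clone and clone cannot be told apart from genotype. Each genotype is represented by 1 peak list over its 3 cultures, so no value below has a replicate error, no difference between the genotypes was tested, and a change in some cells cannot be told apart from a smaller change in all of them. The lists do not separate the 129 and Cast alleles.

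Depth differed between the lists. The lowest local background, taken as the genome-wide mean, was 38.8 reads in the parent and 19.7 in ΔSRR2–18, a ratio of 1.976, and ΔSRR2–18 reads and backgrounds below are called depth-scaled where they were multiplied by that ratio, on which each statement that depth-scaled reads were lower or higher rests. An interval lay at the promoter of 10 of 10 NSPC marker genes in both lists, and at 1 (parent) and 2 (ΔSRR2–18) of 6 markers of pluripotent cells. The 6 markers of mesenchyme or neural crest had 4 and 5. An open promoter does not show that the gene was expressed.

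Distal open regions are for the most part enhancers, stretches where transcription factors bind side by side and raise the output of a gene that can be far away. In neural progenitors the SOXB1 factors SOX1, SOX2 and SOX3 bind the words ACAATGG and ACAAAGG, often beside POU, NFI, RFX, LHX or ZIC factors. AP-1 (FOS and JUN dimers) binds TGACTCA and opens enhancers in many cell types, and CTCF binds insulators and loop anchors that are shared by most tissues.

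The sequences below show what such a region looks like. They run 100 bases to either side of the parent summit, in the 5 members that stood highest in the parent list and held a SOX word, each read on the forward strand of GRCm38 (mm10) from RefSeq, with SOX words in capitals. ACAATGG on the reverse strand reads CCATTGT, and ACAAAGG reads CCTTTGT.
Slitrk3, chr3:73343314-73343514: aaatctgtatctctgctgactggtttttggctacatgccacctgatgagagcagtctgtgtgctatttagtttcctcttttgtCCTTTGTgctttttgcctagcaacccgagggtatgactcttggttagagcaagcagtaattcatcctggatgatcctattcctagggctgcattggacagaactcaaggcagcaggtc
Epha3, chr16:63958218-63958418: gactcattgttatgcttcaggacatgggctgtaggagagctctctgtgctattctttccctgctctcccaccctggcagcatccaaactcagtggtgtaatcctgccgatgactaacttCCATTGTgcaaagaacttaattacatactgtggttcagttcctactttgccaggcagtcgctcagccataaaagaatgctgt
Nme8, chr13:19683379-19683579: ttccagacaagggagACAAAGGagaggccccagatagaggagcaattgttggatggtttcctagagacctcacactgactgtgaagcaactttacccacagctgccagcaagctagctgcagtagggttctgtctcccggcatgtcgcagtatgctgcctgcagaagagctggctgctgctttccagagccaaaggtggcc
Has2, chr15:56420769-56420969: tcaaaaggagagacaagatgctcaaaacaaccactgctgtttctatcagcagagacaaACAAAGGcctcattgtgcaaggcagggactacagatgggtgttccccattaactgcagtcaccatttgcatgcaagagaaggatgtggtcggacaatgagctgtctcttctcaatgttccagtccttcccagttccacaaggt
Vsnl1, chr12:11391553-11391753: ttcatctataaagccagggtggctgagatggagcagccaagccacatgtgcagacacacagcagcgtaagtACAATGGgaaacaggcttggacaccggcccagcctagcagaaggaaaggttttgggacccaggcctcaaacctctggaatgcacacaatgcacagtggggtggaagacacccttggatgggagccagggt
In the member next to *Vsnl1* (a neuronal calcium sensor) the SOX word began 29 bases before the summit, and in the one nearest to *Epha3* (a receptor of axon guidance) 19 bases after it. The 5 regions stood between the percentiles 99.6 and 99.9 in the parent list. In ΔSRR2–18 they were spread from 20.5 near *Has2* (hyaluronan synthase) to 78.7 near *Epha3*, with *Slitrk3* (a synaptic adhesion protein) at 50.1, *Nme8* at 39.0 and *Vsnl1* at 71.3. A region of stable rank with a SOX word, the strongest of its kind in the parent, lay nearest to *Zpld1* and stood at the percentile 99.98 in the parent and 99.99 in ΔSRR2–18.
Zpld1, chr16:55378751-55378951: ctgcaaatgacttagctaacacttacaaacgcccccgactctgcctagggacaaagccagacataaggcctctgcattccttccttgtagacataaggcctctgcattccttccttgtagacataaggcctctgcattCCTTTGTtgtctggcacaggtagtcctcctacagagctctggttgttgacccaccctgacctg
Its SOX word began 38 bases after the summit. A SOX word within 100 bases of the summit was thus present in this region that kept its rank as well as in the 5 members.

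Members were strong regions in the parent. Their median fold enrichment was 14.8 in the parent and 7.28 in ΔSRR2–18, and their median percentile was 72.9 in the parent and 28.4 in ΔSRR2–18. The median difference was -36.3 points, with quartiles of -50.1 and -27.1. These values chose the members and are given without a test, and a fall below means this difference in percentile. By its size, 2010 members fell by 20 to 30 points, 1468 by 30 to 40, 1036 by 40 to 50, and 142 by more than 80. Near the threshold the values ran on without a gap. The 3 regions just inside it lay nearest to *Bdnf* (-20.018 points), *Proser2* (-20.0099) and *Otulin* (-20.0084), and the 3 just outside nearest to *Il17b* (-19.9861), *Ahnak* (-19.9814) and *Magi1* (-19.9806). No region under the parent percentile of 20 could be a member, and the share of shared distal regions that were members went from 4.92% between the percentiles 20 and 30 to 44.0% between 80 and 90.

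**Figure D1:**
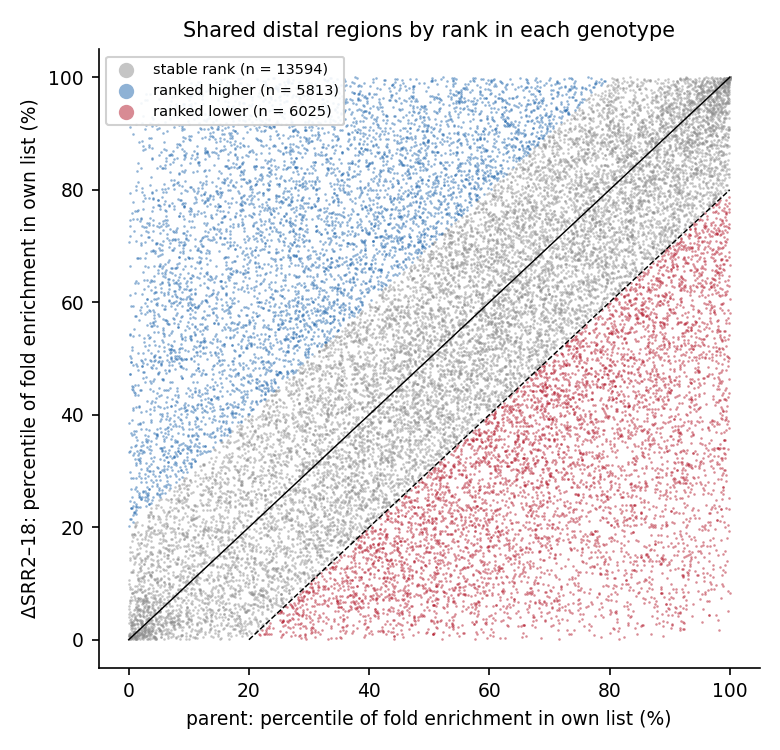
Percentile of fold enrichment in the parent list (x axis, %) and in the ΔSRR2–18 list (y axis, %), 1 point for each shared distal region. The solid line marks equal rank and the dashed line a fall of 20 points. The 6025 members fill the area under the dashed line without a gap to the stable regions.

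The largest falls were found at regions that belonged to the top 5% of the parent list. A percentile cannot go below 0, so falls of this size could start only near the top of the list. The member with the largest fall was in an intron of *Reep3* (a protein that shapes the endoplasmic reticulum), at chr10:67018717-67019383, where 6911 reads piled up at the summit in the parent and 178 in ΔSRR2–18. Its percentile was 98.3 in the parent and 1.67 in ΔSRR2–18, a difference of -96.6. Its sequence around the summit (chr10:67018980-67019180, forward strand) held no SOX word, and the capitals mark its single ZIC word, CCTGCTG.
Reep3, chr10:67018980-67019180: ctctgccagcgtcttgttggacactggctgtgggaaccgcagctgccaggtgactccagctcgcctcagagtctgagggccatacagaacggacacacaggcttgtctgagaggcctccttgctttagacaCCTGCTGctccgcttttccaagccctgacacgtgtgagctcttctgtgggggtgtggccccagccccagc
The next member lay in an intron of *Erc2* (a scaffold of the presynaptic active zone) at chr14:28030787-28031438, at the percentile 99.7 in the parent and 5.14 in ΔSRR2–18, with 1144 and 225 reads. The member in *S100a6* (a calcium-binding protein), chr3:90615107-90615956, had 1932 and 582 reads and went from the percentile 98.0 to 3.44. The other 7 of the 10 largest falls were between -93.5 and -91.0 points. They lay nearest to *Sash1*, *Crybg2*, *Tpm1* (tropomyosin, an actin-binding protein), *Btbd3*, *Slc14a2*, *Plcb1* (a phospholipase C) and *Syt2* (a calcium sensor of synaptic vesicle release). Depth-scaled reads at the summit were lower in ΔSRR2–18 in all 10, with log2 changes from -4.30 (*Reep3*) to -0.75 (*S100a6*), and the depth-scaled background was higher at 8 of the 10, by up to 2.00 on the log2 scale at *S100a6*, and not at *Reep3* and *Sash1*.

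The 10 members that were strongest in the parent stood above the percentile 99.9 there, and 9 of them stood between 25.2 and 66.6 in ΔSRR2–18. The strongest, in an intron of *Trpm7* (chr2:126815766-126816394, nearest TSS *Usp50*), went from the percentile 99.98 to 60.6 with 2004 reads in the parent and 257 in ΔSRR2–18. The only member of this group that was also among the 10 largest falls was in an intron of *Slc14a2* (a urea transporter), chr18:78547846-78548443, which went from 99.97 to 8.23 with 2693 and 305 reads. The member upstream of *Itgav* (integrin alpha V), chr2:83714341-83715189, was the one of the 10 with more depth-scaled reads in ΔSRR2–18. It held an AP-1 word and had 2101 reads in the parent and 1826 in ΔSRR2–18, which is more after scaling for depth (0.78 on the log2 scale), while its depth-scaled background was higher by 2.07 on that scale.

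A fold enrichment falls when the reads at the summit fall or when the background around it rises, and the members held both cases. At 5139 of 6025 members (85.3%) depth-scaled reads were lower in ΔSRR2–18, and at 2852 (47.3%) they were less than 50% of the parent value. In stable regions these shares were 49.9% and 10.1%, and in regions that ranked higher 11.8% and 2.27%. The reads were solved in part from the fold enrichment that chose the members, so the shares are a description. The median change of reads was -0.93 on the log2 scale in members, against 0.0017 in stable regions. The depth-scaled background of a member had a median change of 0.00, so the members were taken in 3 groups by it, after these values were seen. In 1677 members (27.8%) the background was lower in ΔSRR2–18 by more than 1.5 times, and there the median reads were 2212 in the parent and 199 in ΔSRR2–18 (log2 change -2.28 after scaling). In 3000 (49.8%) it was within 1.5 times, with median reads of 760 and 198 (-0.84). In the last 1348 (22.4%) the background was higher by more than 1.5 times, and median reads were 735 and 414.5 (0.20), so that most of these summits had no fewer reads. Depth-scaled reads were lower at 478 of these 1348 (35.5%), at 2984 of the 3000 and at all 1677. Fold enrichment was lower at all 6025 members, so a lower background required fewer reads. The count of 1677 was therefore fixed by the rule and the grouping, which also shaped the order of the 3 median changes. Ranked by reads in place of fold enrichment, 3613 members (60.0%) were lower by 20 points or more. So were 10.1% of stable regions and 2.43% of regions that ranked higher, and 5132 of all 25432 shared distal regions.

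A higher background went with other peaks close by, in members and in stable regions. A peak found only in ΔSRR2–18 lay within 5 kb of 85.6% of members whose background was over 1.5 times higher (95% Wilson interval 83.6 to 87.4), of 38.0% where it was within 1.5 times (36.3 to 39.8) and of 30.8% where it was lower (28.6 to 33.0). In stable regions the same 3 shares were 58.0% (56.0 to 60.1), 22.0% (21.1 to 22.9) and 16.8% (15.5 to 18.2). Shared neighbours showed the same scale of distance. Where the nearest other shared distal region was 2 to 5 kb from a member, it ranked higher in 40.1% of 616 cases and lower in 13.6% (11.2 to 16.6). Between 5 and 10 kb the shares were 24.2% and 25.7% (23.1 to 28.4) of 1063, close to the 22.9% and 23.7% of all shared distal regions. MACS2 takes its local background from windows around each peak, so close neighbours do not have independent ranks, and the part of these neighbours in the falls was not tested. Over a wider range members were no closer to each other than to stable regions, with another member within 50 kb of 38.5% of members (37.2 to 39.7) and of 38.8% of stable regions (38.0 to 39.6).

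**Figure D2:**
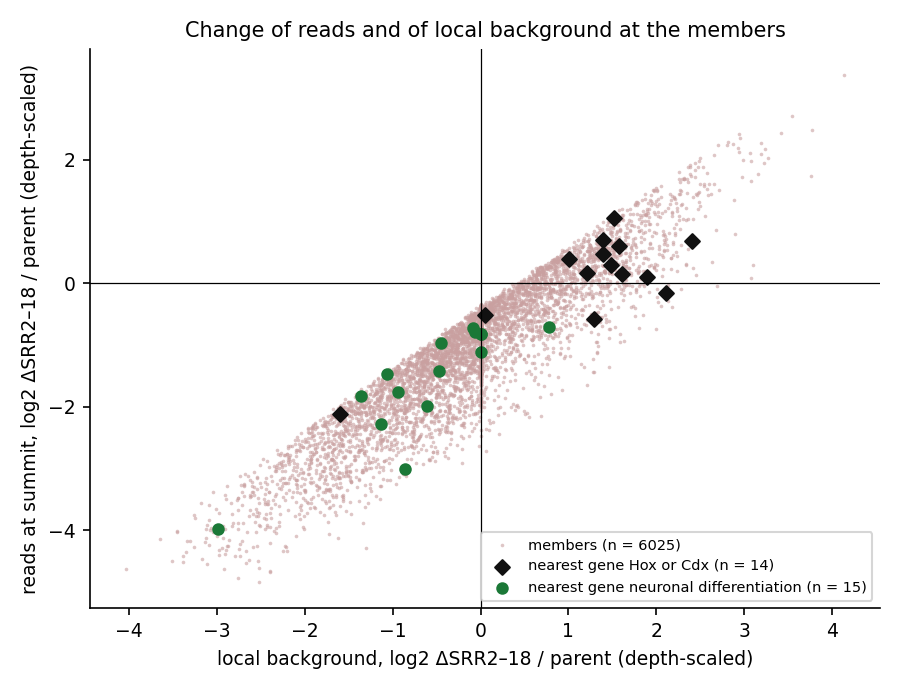
Log2 change (ΔSRR2–18 over parent, depth-scaled) of the local background (x axis) and of the reads at the summit (y axis) for the 6025 members. Members nearest to *Hox* or *Cdx* genes (black diamonds, n = 14) lie mostly to the right of 0, with more background and with reads near or above 0. Members nearest to neuronal differentiation genes (green circles, n = 15) all lie below 0 in reads.

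Members sat a little farther from protein-coding TSSs than stable regions. Their nearest protein-coding TSS was within 10 kb in 20.6% (19.6 to 21.6), against 26.4% of stable regions (ratio 0.781, 95% interval 0.738 to 0.827), and over 100 kb away in 19.4%, against 16.3% (1.19, 1.11 to 1.27). Regions that ranked higher were also less often within 10 kb than stable ones, in 18.4% of cases. The share of members with the summit in a gene body was 59.6% (58.3 to 60.8), close to the 57.7% of stable regions (ratio 1.03, 1.01 to 1.06), and 54.7% were in introns. Members were spread over the autosomes and X, where they made up 22.6% to 26.0% of the shared distal regions of each chromosome. The interval was narrower in ΔSRR2–18 for 88.0% of members, with a median of 773 bp in the parent and 514 bp in ΔSRR2–18, a measure that moves with depth and was narrower in 62.2% of stable regions too. The strongest summit stayed within 100 bp in 77.2% of members (76.1 to 78.2) and in 82.3% of stable regions. Members had fewer summits in ΔSRR2–18 in 29.4% of cases, against 20.8%.

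Sequence was not used to choose the members, so motif content could be compared between classes. The words named here were searched within 100 bp of the parent summit on both strands. The intervals given cover counting error only, and neighbouring regions are not independent. A SOX word was found in 11.2% of members (673 of 6025, 10.40 to 11.99), in 9.27% of stable regions and in 9.75% of regions that ranked higher, against 7.02% in windows 500 bp to either side of the members' summits. The ratio of members to stable regions was 1.21 (1.103 to 1.317), or 1.14 (1.03 to 1.25) with stable regions weighted to the members' parent percentiles, and over all shared distal regions the share was 9.83%. ACAATGG showed the larger ratio (1.36, 1.17 to 1.58) and ACAAAGG the smaller (1.16, 1.04 to 1.30). By the size of the fall, the share was 10.2% at 20 to 30 points (8.95 to 11.6), 10.3% at 30 to 40 and 10.8% at 40 to 50. It was 13.3% at 50 to 70 (11.4 to 15.4) and 14.4% beyond 70 (11.3 to 18.2), with intervals that overlap between neighbouring sizes. Larger falls need a higher parent percentile, and the stable share was 8.78% at the parent percentiles 20 to 40 and 10.7% at 80 to 100. The ratio of members to stable regions was 0.900 (0.637 to 1.27) within 20 to 40 and 1.14 (0.983 to 1.33) within 80 to 100. Members with 2 or more SOX words were rare (43 of 6025, 0.714%, against 0.360% of stable regions).

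Words of factors known to work beside SOX2 in neural progenitors were also more frequent in members. The single NFI site TTGGCA, bound by nuclear factor I proteins of the radial glia and astrocyte lineages, was in 21.5% of members (20.4 to 22.5), 17.0% of stable regions and 18.6% of all shared distal regions (ratio 1.26, 1.19 to 1.34). Regions that ranked higher held it more often than stable ones as well (19.4%, ratio 1.15, 1.07 to 1.22). By the size of the fall the share of members with the single NFI site was 17.9% at 20 to 30 points (16.3 to 19.6) and 25.4% beyond 70 (21.4 to 29.8). Its ratio of members to stable regions was 1.00 (0.796 to 1.27) within the parent percentiles 20 to 40 and 1.30 (1.17 to 1.44) within 80 to 100. The POU octamer (ATGCAAAT or ATGCTAAT), bound by neural POU factors, was in 3.37% of members and 2.09% of stable regions (1.61, 1.35 to 1.93), and 2.47% of all shared distal regions held it. RFX (GTTGCCA), known from ciliary genes, was in 5.76% and 4.19% (1.37, 1.21 to 1.56; all 4.57%). The LHX homeodomain word TAATTAG was in 2.17% and 1.55% (1.40, 1.13 to 1.74; all 1.70%). Windows 500 bp away held it about as often, in 1.99% for members and 1.74% for stable regions. The LHX ratio was 0.560 (0.202 to 1.55) within the parent percentiles 20 to 40. It was 1.21 (0.771 to 1.89) within 40 to 60, 1.45 (0.972 to 2.16) within 60 to 80 and 1.51 (1.02 to 2.24) within 80 to 100. ZIC (CCTGCTG) was in 15.4% and 13.8% (1.12, 1.04 to 1.20; all 14.0%). In bins of 20 parent percentiles from 20 to 100 the ZIC ratio was 1.03 to 1.22, and each interval included 1. With members limited to those whose reads rank also fell by 20 points or more, it was 1.08 (0.992 to 1.18). It was 1.28 where the background was higher by more than 1.5 times (1.08 to 1.51), and 1.28 where it was the lowest in both lists (1.08 to 1.52). The GLI word TGGGTGGTC, read by the effectors of hedgehog signalling, was rare, in 20 of 6025 members and 12 of 13594 stable regions (3.76, 1.84 to 7.69), and was held by 0.165% of all. The NFI palindrome, TTGGC and GCCAA 5 bases apart, was in 14 members and 18 stable regions, with an interval of the ratio that included 1 (1.75, 0.873 to 3.53). The NFI and RFX words can share the letters TGGCA, the SOX word ACAAAGG and the TCF/LEF word the letters CAAAG, and the POU and LHX words the letters TAAT. The GLI and KLF words can also overlap.

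AP-1 and CTCF words were less frequent in members. TGACTCA was in 5.74% of members (5.18 to 6.36), 8.93% of stable regions and 20.8% of regions that ranked higher (members over stable 0.643, 0.573 to 0.722), and 10.9% of all shared distal regions held it. Its share changed along the whole range of differences, from 4.23% of regions that fell by more than 70 points to 31.0% of those that gained more than 70. CTCF was in 8.46% of members (7.79 to 9.19) and 12.3% of stable regions (0.690, 0.628 to 0.758; all 9.97%). Its share peaked at regions with little change in rank and was low on both sides, with 3.48% beyond a fall of 70 points and 2.91% beyond a gain of 70. KLF (GGGNGTGG) was in 7.29% and 8.26% (0.882, 0.793 to 0.981; all 7.85%). The intervals of the ratio included 1 for TEAD (ACATTCC, 0.923), FOX (TGTTTAC), TCF/LEF (ATCAAAG), the CACGTG E-box, HOX-PBX (TGATTNAT, 0.852, 0.703 to 1.03), CDX and posterior HOX (TTTATNG, 0.890, 0.782 to 1.01), ETS (CCGGAAG) and GRHL (AACCNGTT). GC content around the summit hardly differed, with a mean of 52.6% in members and 52.5% in stable regions, a difference of 0.156 points (-0.0476 to 0.359). The same windows held fewer CG pairs in members, a mean of 3.85 against 4.41 (difference -0.559, -0.695 to -0.423). In the windows 500 bp away GC content was 45.5% and 46.1% (difference -0.569, -0.761 to -0.376).

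**Figure D3:**
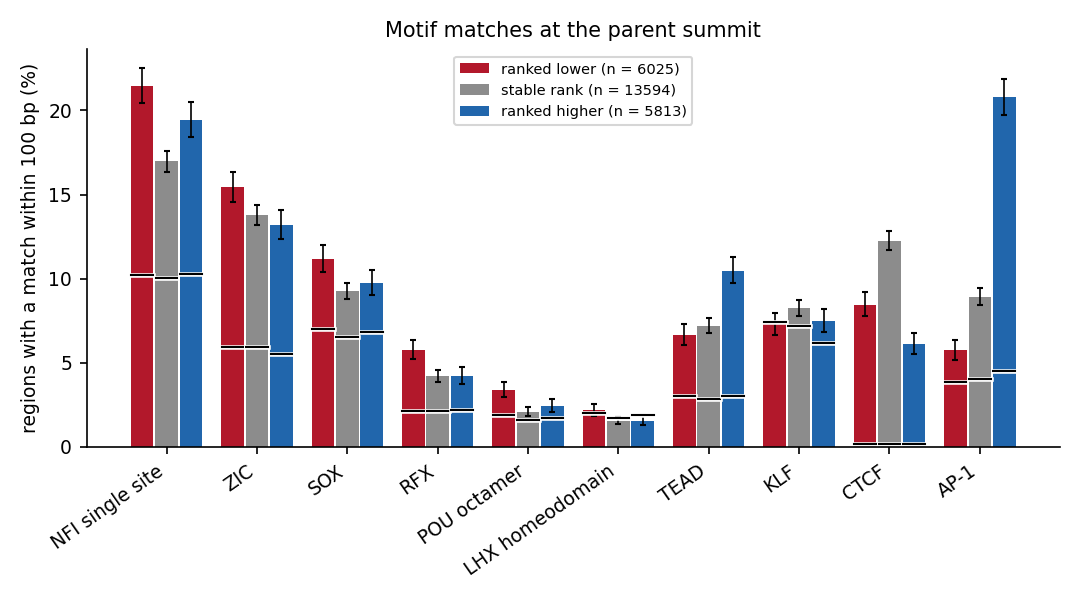
Share of regions (%, y axis) with a match within 100 bp of the parent summit, for 10 motifs and the 3 classes of shared distal regions. Bars show the share, error bars its 95% Wilson interval, and short horizontal lines the share in windows 500 bp away. Members (red) stand above stable regions (grey) for the single NFI site, at 21.5% against 17.0%, and below them for AP-1 and CTCF.

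Motif content also differed between the 3 groups of members set by their background. SOX words were in 14.3% of members whose background was lower in ΔSRR2–18 (12.7 to 16.1), 10.8% of those within 1.5 times (9.74 to 11.96) and 8.09% of those whose background was higher (6.75 to 9.66). The single NFI site was in 26.5% (24.5 to 28.7), 20.2% (18.8 to 21.7) and 18.0% (16.0 to 20.1). CTCF was in 1.19% of the first group (0.773 to 1.83), 11.5% of the second (10.4 to 12.7) and 10.8% of the third (9.28 to 12.6). In stable regions of the same 3 groups, in that order, SOX words were in 11.2%, 8.37% and 10.0%. The single NFI site was in 20.2%, 14.8% and 20.9% of those stable regions, and CTCF in 7.86%, 15.7% and 5.35%. Among regions whose background was the lowest of its list in both genotypes (994 members and 2808 stable), the SOX ratio was 1.29 (1.04 to 1.60), while those of AP-1 (1.07, 0.780 to 1.46), CTCF (0.914, 0.785 to 1.07) and the single NFI site (1.13, 0.958 to 1.33) had intervals that included 1. So had those of RFX (1.097, 0.767 to 1.57), POU (1.44, 0.918 to 2.25) and LHX, which was below 1 (0.853, 0.490 to 1.48). Where the background was higher by more than 1.5 times in both classes, the ratios were 0.807 for SOX (0.648 to 1.00), 0.858 for the single NFI site (0.746 to 0.986) and 2.03 for CTCF (1.61 to 2.56). Where it was within 1.5 times in both classes, they were 1.29 for SOX (1.14 to 1.46) and 1.37 for the single NFI site (1.254 to 1.495). The higher SOX and NFI shares of members over stable regions were thus not found among regions with a higher background.

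**Figure D4:**
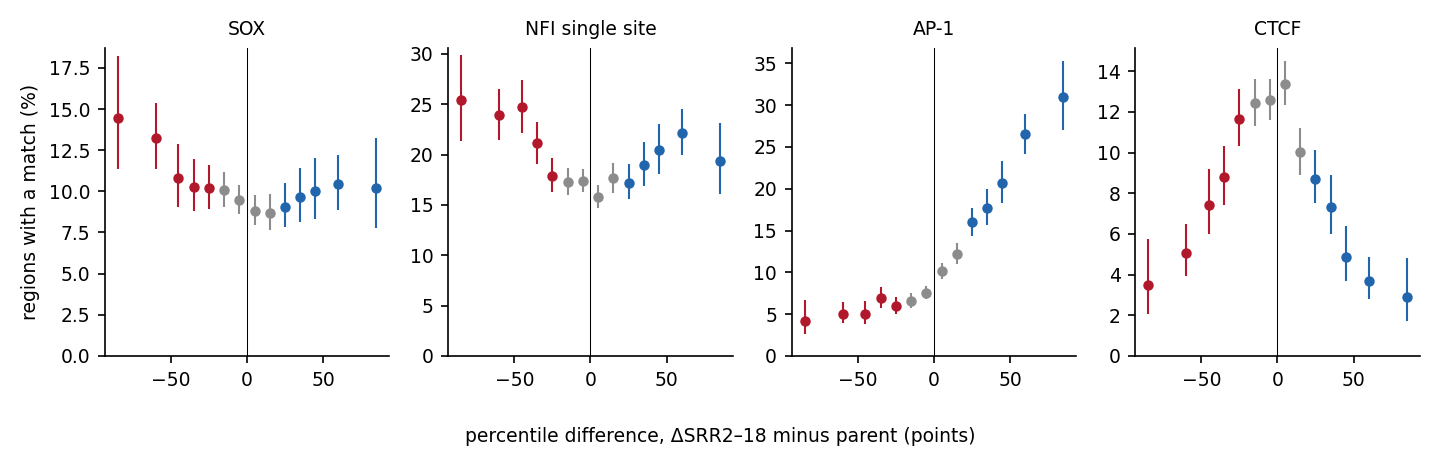
Share of shared distal regions with a match (%, y axis, a separate scale in each panel) against the percentile difference, ΔSRR2–18 minus parent (x axis, points), for 4 motifs. Points are bins of 10 to 30 points at their centres with 95% Wilson intervals, red for members, grey for stable regions and blue for regions that ranked higher. AP-1 went from 4.23% at the left end to 31.0% at the right end, and CTCF peaked near 0.

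Of 16661 shared distal regions with a protein-coding TSS within 50 kb, 3840 were members (23.0%), with a median difference of -1.40 points over all of them. These members lay nearest to 3189 genes. Most of these genes had 1 member (2644 genes), while 461 had 2, 70 had 3 and the others 4 to 6. *Mical2* (an enzyme that oxidises actin), *Abr* (a regulator of the actin cytoskeleton) and *Arid5b* (a DNA-binding protein) had 6 each, of 11 shared distal regions at *Mical2* (2 ranked higher), 15 at *Abr* (4 higher) and 8 at *Arid5b* (2 higher). The 6 in *Mical2* were intronic and differed by -76.5 to -21.8 points. Those in *Abr* were intronic too, with -57.2 to -33.0 points, and depth-scaled reads were lower at all 6. Those of *Arid5b* differed by -48.8 to -20.4 points, with depth-scaled reads higher at 3 of the 6. *Trim8* and *Trpm3* (a cation channel) had 5 each, and *Scgb1a1*, *Ank2* (ankyrin B, a membrane scaffold of neurons), *1700034J05Rik*, *Ttc39b* and *Psd2* had 4 each.

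The caudal and *Hox* genes, which give cells their position along the trunk and spinal cord, had the highest share of members among the 10 gene lists, 14 of 21 regions (66.7%, 45.4 to 82.8), with a median difference of -27.1 points over the 21. The interval takes the regions as independent and can be too narrow, because 7 of the 14 members lay nearest to *Hoxb* genes and 3 to *Hoxc* genes. At most of these members the lower fold enrichment came with a higher background and with no fewer reads. Depth-scaled background was higher by more than 1.5 times at 12 of the 14, against 857 of the 3840 members with a gene, and depth-scaled reads were lower at 4 of the 14, against 3286 of those 3840. The largest fall was in the *Hoxc* cluster, at chr15:102998990-102999800 (nearest TSS *Hoxc8*), which stood at the percentile 91.7 in the parent with 1435 reads and at 6.07 in ΔSRR2–18 with 647 reads. After scaling for depth its reads were 0.891 times the parent value and its background 4.32 times. The second *Hoxc8* member, chr15:102987105-102987940, had 632 and 483 reads, or 1.51 times the parent after scaling, with 2.99 times the background. The 7 *Hoxb* members, chosen for mention after their values were seen, had 1.03 to 5.30 times the parent background and 0.670 to 2.07 times its reads. Ranked by reads at the summit, 1 of the 21 regions fell by 20 points or more (4.76%, 0.846 to 22.7), against 19.6% of the 16661 regions. By −log10 p it was 6 (28.6%, 13.8 to 50.0), against 21.4% of the 16661. With the background within 1.5 times, 1 of 4 regions was a member (4.56 to 69.9%), against 20.8% of 9347. Both intervals held the share of all regions.

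Of 44 shared distal regions nearest to neuronal differentiation genes, 15 were members (34.1%, 21.9 to 48.9, an interval that holds the 23.0% of all 16661 regions), and the median difference of all 44 was -11.2 points. Depth-scaled reads were lower at 15 of 15, as they were at 3286 of all 3840 members with a gene. The median log2 change of the 15 was -1.43 for depth-scaled reads and -0.47 for depth-scaled background, against -0.90 and 0.00 over the 3840. Read counts printed for single regions are not scaled for depth. Ranked by reads in place of fold enrichment, 23 of 44 ranked lower by 20 points or more (52.3%, 37.9 to 66.2), against 19.6% of the 16661. The largest fall was upstream of *Dcx* (doublecortin, a microtubule protein of migrating neurons), chrX:143966188-143966797, with 1626 reads in the parent and 102 in ΔSRR2–18 and the percentiles 95.7 and 10.4. The 3 members of *Myt1l* (a repressor of non-neuronal genes) were in its introns. At the first, chr12:29872196-29872939, reads were 5430 in the parent and 173 in ΔSRR2–18 and the percentiles 83.1 and 36.9. The second, chr12:29795082-29795846, held a SOX word and had 609 and 143 reads, and the third, chr12:29837254-29838364, had 416 and 122.

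Neural progenitor and radial glia genes had 14 members among 66 regions (21.2%, 13.1 to 32.5), near the 23.0% of all regions, and depth-scaled reads were lower at 14 of 14 (3286 of 3840 over all members with a gene). The background of these members was lower too. Their median log2 change was -2.45 for depth-scaled reads and -1.56 for depth-scaled background, against -0.90 and 0.00 over the 3840. Ranked by reads, 24 of the 66 fell by 20 points or more (36.4%, 25.8 to 48.4), against 19.6% of the 16661 regions. The largest fall was upstream of *Tnc* (tenascin C, a matrix protein of radial glia), chr4:64094096-64094801, with 2784 and 212 reads and the percentiles 90.1 and 6.33. *Fgfr1*, a receptor for the FGF2 in the medium, had 2 members, with 4429 reads in the parent and 584 in ΔSRR2–18 at the one in its intron (chr8:25544623-25545319) and 479 and 112 at the one upstream (chr8:25483475-25484067). Forebrain patterning genes had 10 members among 39 regions (25.6%, 14.6 to 41.1), also near the 23.0% of all regions, and depth-scaled reads were lower at all 10, as at most members. The median log2 change of these 10 was -1.54 for depth-scaled reads and -0.84 for depth-scaled background. Both shared distal regions nearest to *Lhx2*, a selector gene of the cortex, were members and both held the single NFI site. They lay downstream of the gene, at chr2:38394620-38395774 with 3038 and 192 reads and the percentiles 90.9 and 43.2, and at chr2:38375208-38376460 with 1522 and 305 reads and 72.8 and 48.8. The largest fall of the list was upstream of *Dlx1* (a homeobox gene of the ventral forebrain), in an intron of *Metap1d*, chr2:71498986-71500104, with 1541 and 121 reads. Midbrain and hindbrain patterning genes had 1 member among 25 regions (4.00%, 0.710 to 19.5), upstream of *Pax8*, at the percentiles 87.0 and 13.1.

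The remaining lists had between 19.1% and 41.7% of their regions among the members. Axon guidance and cell adhesion genes had 26 members among 83 regions (31.3%, 22.4 to 41.9, against 23.0% of all regions), with depth-scaled reads lower at 23 of 26, close to the 3286 of 3840 over all. With the gene within 10 kb the list had 4 members among 30 regions (13.3%, 5.31 to 29.7), against 21.1% of all. The largest fall was in an intron of *Sema6a* (a membrane-bound guidance cue), with 2190 reads in the parent and 116 in ΔSRR2–18. *Sema3a*, a secreted repellent of axons, had 3 members, with differences of -30.1, -27.9 and -23.0 points. Glial genes had 9 members among 47 regions (19.1%, 10.4 to 32.5), and the largest fall was downstream of *Cd9* (a tetraspanin of the cell surface), with 1620 and 145 reads. The genes of AP-1, TEAD and YAP had 12 among 54 (22.2%, 13.2 to 34.9), of which 3 lay nearest to *Tead4*. The largest fall of that list was nearest to *Mafk*, at -62.0 points. Among lists of other cell types, neural crest and mesenchyme genes had 12 of 39 (30.8%, 18.6 to 46.4), with the largest fall at *Col1a1* (-37.5 points) and 2 members at *Tfap2a*. Pluripotency genes had 5 of 12 (41.7%, 19.3 to 68.0), with the largest fall upstream of *Prdm14* (-75.1 points). Only 2 shared distal regions lay within 200 kb of *Sox2* itself, and none was a member.

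**Figure D5:**
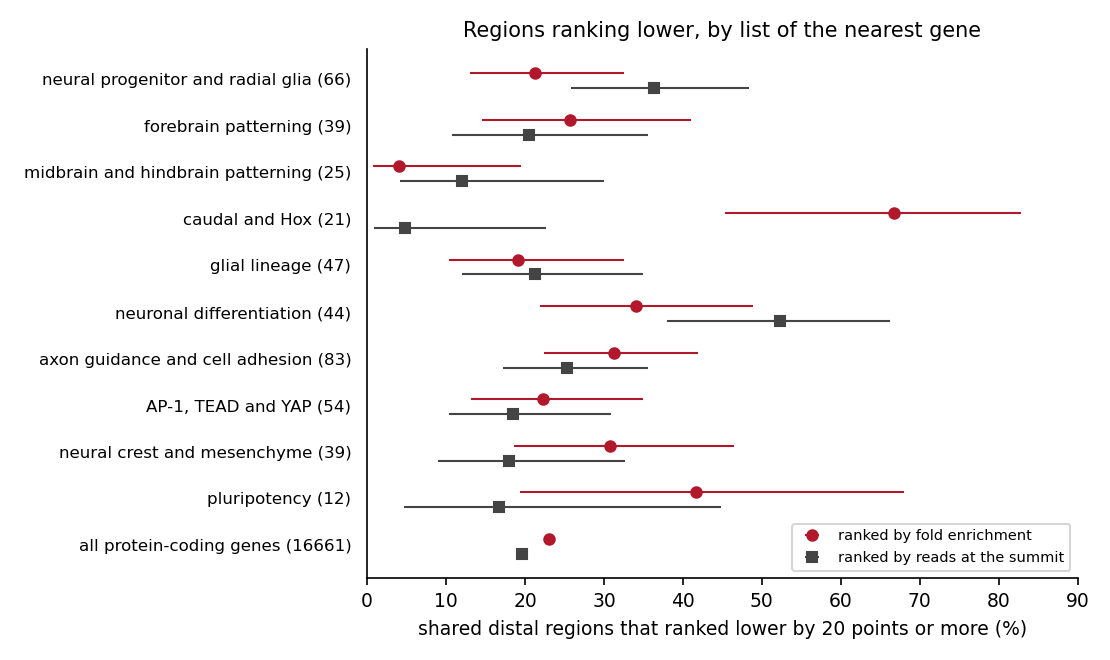
Share of shared distal regions that ranked lower by 20 points or more (%, x axis, with 95% Wilson intervals), by list of the nearest protein-coding gene within 50 kb. The number of regions is in brackets. Red circles rank by fold enrichment and dark squares by reads at the summit. The caudal and *Hox* list is at 66.7% by fold enrichment and 4.76% by reads, and the neuronal differentiation list at 34.1% and 52.3%.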

How the data were processed

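ATAC-seq of 3 cultures per genotype was run by the authors through ENCODE's ATAC-seq workflow with MACS2 and IDR on mm10 (the build in the submitters' processing notes), which gave 1 conservative and 1 optimal peak list for each genotype over its cultures. At each summit the deposited values used here are a ratio (fold enrichment), a −log10 p from MACS2 and an IDR score. MACS2 settings were not given in the sources used here. The labels give 30000 cells per culture. One allele of each autosome is Cast, and reads that differ from mm10 can map less often.

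Conservative lists were used. Reads and background at each summit were solved from the fold enrichment and −log10 p with the Poisson model of MACS2, and the reads were whole within 0.05 of an integer at all intervals. Reads are pileup heights. Windows of 100 bases on either side of the summit were read from RefSeq GRCm38, with none printed from chromosome 18, and 19 motifs were matched exactly. Shares have 95% Wilson intervals, and ratios of shares have 95% intervals on the log scale. The pooled lists hold no replicate values, so no test between genotypes was made. Named regions were the 10 largest falls, the 10 strongest members in the parent, members of the 10 genes with most members, the 3 on either side of the threshold and, in each gene list, the largest fall and the members of the gene with most members. Members, motifs and gene lists were chosen with earlier results of these data known. Scripts (Python 3.11.15, numpy 2.4.6, pandas 2.3.3, scipy 1.17.1) were tested on simulated data.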

Additional observations from a re-analysis of the deposited data

How the results depend on the processing

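No paired analysis was possible because each peak list pools its 3 cultures and carries no replicate values, and for the same reason no culture could be left out. Under the 13 alternatives set for motifs (optimal lists, percentile by −log10 p, merged intervals, an IDR score of at least 830, 50% reciprocal overlap, partner summit within 100 bp, promoter distance of 2.5 kb, thresholds of -30 and -10, autosomes only, a window of 50 bp, and stable regions weighted to the members' parent percentile or GC content), each of the 4 ratios kept its direction and an interval without 1. Merged intervals gave the same values as the main setting, because the distinct intervals of a list did not overlap, so that alternative was no check. SOX ranged from 1.14 to 1.40, the single NFI site from 1.21 to 1.40, AP-1 from 0.546 to 0.685 and CTCF from 0.463 to 0.756. The number of members was 4015 at a threshold of -30 and 9102 at -10. Ranking by −log10 p moved the gene body share to 62.2%, the share with a partner summit within 100 bp to 75.3% and the GC difference to 0.525 points. The summit share was 80.1% with 50% reciprocal overlap and 78.6% at -10. The GC difference was 0.393 with 50% reciprocal overlap, 0.246 with a partner summit within 100 bp and 0.329 at 2.5 kb, each with an interval above 0, and reversed to -0.292 with stable regions weighted by parent percentile. The causes were not tested.

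The other alternatives were chosen after seeing the data. With percentiles of reads at the summit, the 4 ratios kept their direction, the gene body share was 62.8%, the summit share 74.7% and the GC difference 0.398. With both classes limited to a background within 1.5 times, 3000 members remained in the comparison, with a gene body share of 57.8% and a summit share of 81.4%. With the lowest background in both lists there were 994 members, AP-1 reversed to 1.07, CTCF was 0.914 and the single NFI site 1.13, the gene body share was 52.8%, the summit share 88.7% and the GC difference 1.76. With background higher by over 1.5 times there were 1348 members, SOX reversed to 0.807, the single NFI site to 0.858 and CTCF to 2.03, while the gene body share was 57.7%, the summit share 79.6% and the GC difference 0.643. Of the 10 gene lists, 6 had a member share above that of all regions, and 5 to 7 did under the 5 alternatives run for them, but single lists moved by more. With the gene within 10 kb, glial genes went from 19.1% to 5.88%, neural progenitor genes from 21.2% to 8.70%, axon guidance genes from 31.3% to 13.3% and AP-1, TEAD and YAP genes from 22.2% to 35.3%. By −log10 p, neural progenitor genes were at 37.9% and neural crest genes at 17.9% (from 30.8%). By reads, pluripotency genes went from 41.7% to 16.7% and neural crest genes to 17.9%. The share of all regions was 23.0% in the main setting, 21.1% within 10 kb, 21.4% by −log10 p and 19.6% by reads.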

Other observations

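A scan of all 7-base words, run as a description, gave the highest member to stable ratio (among words in at least 1% of members) to ACTGATA, in 1.48% of members and 0.780% of stable regions (1.89, 95% interval 1.43 to 2.51, the highest of 5626 words and so not a test). Of the first 10 words, 6 held TAAT or its reverse complement ATTA, the core read by many homeodomain factors: ATAATGC (1.64), CATTAGC (1.58), AGCTAAT (1.57), CTAATGA (1.54), ACTAATG (1.46) and TAATGAA (1.45). Some of these were as common in regions that ranked higher, with ATAATGC in 1.31% of members and 1.48% of those, CTAATGA in 3.42% and 3.39%, and ACTAATG in 1.91% and 1.93%. CTGGCAC (1.45), which shares the letters TGGCA with the single NFI site, was in 7.59% of members, 5.22% of stable regions and 5.26% of those that ranked higher. GCCTAAC (1.61) and CGGTTGC (1.46) made up the rest. The AP-1 word TGACTCA was among the 15 words with the lowest ratio, and by far the most common of them in regions that ranked higher (20.8%).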
